A study of Mus musculus with 4 samples.

Results

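Chromatin accessibility at the genes of the AP-1 transcription factors was examined in bone mesenchymal stem cells (MSCs) of old and young mice. The 10 genes were Fos, Fosb, Fosl1 and Fosl2 of the Fos family, Jun, Junb and Jund of the Jun family, and the related Atf3, Batf and Batf3. Every ATAC-seq peak that overlapped one of these genes, or the 20 kb upstream of its start in the GENCODE vM21 annotation, was taken. This gave 35 peaks of the 117282 in the deposited table, or 0.0298%. The rule used the positions of peaks and genes only. By position, 19 peaks lay upstream of their gene, 10 touched an exon and 6 lay in introns. Jun had 1 peak, Fosb, Fosl2, Junb and Batf had 3 each, Fos, Fosl1, Jund and Batf3 had 4 each, and Atf3 had 6.

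The old group held 2 samples from mice aged 18 to 22 months and the young group 2 samples from mice aged 3 to 5 months, and all 4 cultures were kept at 2% O2. MSCs were released with collagenase from hind-limb bones of wild-type C57BL/6N mice, sorted as CD45-, TER-119-, CD140a+ and Sca-1+ cells and expanded in culture. None of the cells carried a transgene or received a drug as far as the labels say. Whether a sample came from a single animal or from a pool is not given in the sources used here, so p-values measure the spread between these samples only. ATAC-seq tags accessible DNA with a transposase, and the deposited value of a peak is its count per 10000000 counts of the library, without correction for peak length.

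The library totals lay between 28259470 and 32559794 counts, so that 3 counts were worth between 0.921 and 1.06. The values as deposited were lower overall at old age (median log2 fold change over the table -0.27), and relative log expression (RLE) factors of 0.817, 1.01, 1.07 and 1.15 for old replicates 1 and 2 and young replicates 1 and 2 removed this offset. Peaks held 43.8% and 50.3% of the library in old replicates 1 and 2 and 57.5% and 62.9% in young replicates 1 and 2. RLE scaling also removes any change shared by most peaks, so higher and lower in scaled values are relative to the whole table. Whether the offset lay in the cells or in the libraries was not tested. Unless stated otherwise, values below are RLE-scaled, and a fold change is the old minus the young mean of log2(value + 1). All 9 markers of MSCs and stroma had a promoter peak, with summed deposited values between 1589 and 2573. Of 8 blood markers, 4 had one, with summed values between 89.5 and 140, and no promoter peak was listed for Ptprc, which encodes CD45. Of 4 endothelial markers, Pecam1 and Kdr had one, with sums between 32.2 and 41.2. In such bulk samples, fewer cells with an open site and less opening per cell cannot be told apart.

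AP-1 is a family of dimeric factors that grip DNA through a basic leucine zipper. Fos proteins need a Jun partner, whereas Jun proteins also pair with each other, and ATF and BATF proteins pair with Jun proteins at related sites. Fos, Fosb, Jun and Junb are classical immediate early genes, which growth factors, serum and stress switch on within minutes through serum response factor and through kinases of the MAPK family. In cells of the bone lineage, Fos, Fosl1, Fosl2, Junb and a Fosb splice form are known regulators of osteoblast growth and differentiation.

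The serum response element of such genes is a CArG box, the site of serum response factor. The boxes nearest to the starts of Fos, Fosb and Junb are shown with 20 bases on each side, because all 3 lie inside the wide promoter peaks described next. Capitals mark the box, and each sequence is written in the direction of its gene and taken from the GRCm38.p6 genome, the assembly that mm10 names.
Fos, chr12:85473561-85473610, plus strand: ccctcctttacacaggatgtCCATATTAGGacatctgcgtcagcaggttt
Fosb, chr7:19310288-19310337, minus strand: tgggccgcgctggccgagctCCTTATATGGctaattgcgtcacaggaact
Junb, chr8:84980139-84980188, minus strand: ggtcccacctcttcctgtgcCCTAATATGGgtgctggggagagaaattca
The Fos box was centred 304 bases and the Fosb box 262 bases before the annotated start, and the Junb box 1446 bases before it. Across the 35 peaks 13 CArG boxes were found in 5 peaks, all of them at Fos, Fosb, Fosl2 and Junb. Their density was 0.0568 per kb, against 0.0547 per kb in all peaks.

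The 150 bases before the RefSeq starts of Fos, Fosb and Jun are shown because these were the 3 AP-1 promoter peaks with the highest values per length. Capitals mark TGACG, which is the core of a cyclic AMP response element, TGACATCA, a variant of the AP-1 site, and the TATA motif TATAAA.
Fos, chr12:85473740-85473889, plus strand: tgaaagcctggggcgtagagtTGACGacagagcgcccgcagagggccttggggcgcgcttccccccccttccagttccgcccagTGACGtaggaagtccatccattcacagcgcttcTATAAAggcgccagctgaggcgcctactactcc
Fosb, chr7:19310046-19310195, minus strand: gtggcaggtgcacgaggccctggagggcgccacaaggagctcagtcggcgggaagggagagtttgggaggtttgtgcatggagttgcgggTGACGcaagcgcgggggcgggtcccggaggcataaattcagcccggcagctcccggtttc
Jun, chr4:95052223-95052372, minus strand: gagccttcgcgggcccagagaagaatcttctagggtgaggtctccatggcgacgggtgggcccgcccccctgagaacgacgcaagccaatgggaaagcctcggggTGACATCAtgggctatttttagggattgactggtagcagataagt
In Fos, TGACG began 129 and 66 bases before the start and TATAAA began 33 bases before it. TGACG began 60 bases before the Fosb start and TGACATCA 45 bases before the Jun start. RefSeq's promoter table, which spans 300 bases around each start, held 9 of the 10 genes. On either strand, TGACG was present in 5 of these 9, namely Fos, Fosb, Junb, Atf3 and Batf, and in 20.9% of all 32544 promoters. TGACATCA was present in Jun alone and in 3.37% of all promoters, and TATAAA in Fos and Junb and in 13.6% of all. These 3 motifs were chosen after the sequences had been seen, and a match describes the letters only. At Jund the RefSeq span, chr8:70697489-70697788, lay upstream of the annotated start at 70698949. It did not reach the TGACGTCA, which contains TGACG, shown for Jund below. The RefSeq spans of Atf3, Fosl2 and Batf3 did not cover the annotated starts of these genes either.

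**Figure D1:**
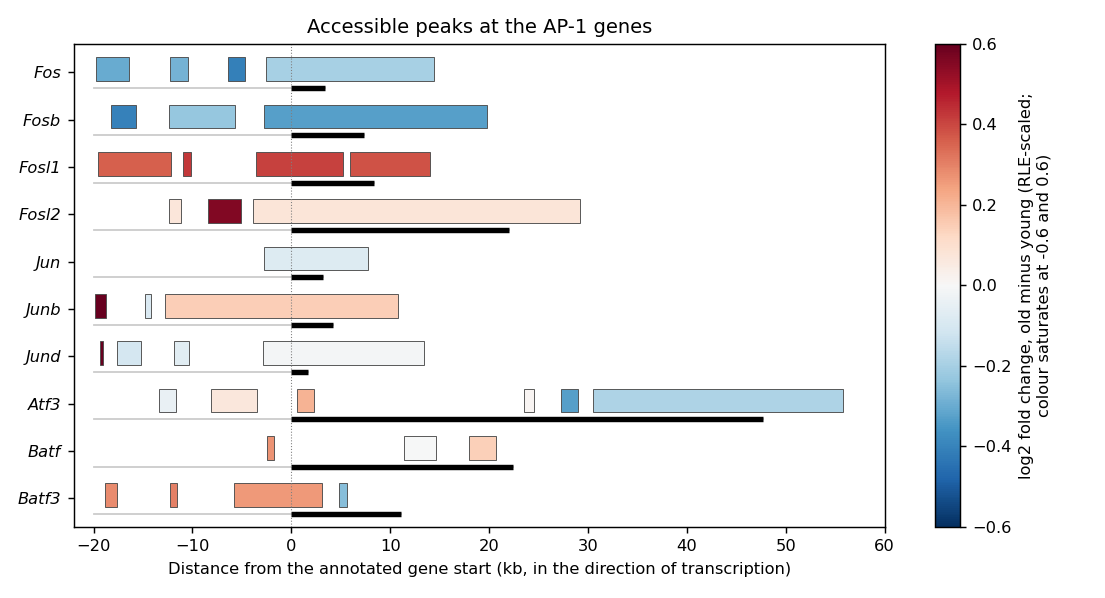
The 35 peaks drawn to scale by distance from the annotated start of their gene, in kb in the direction of transcription, with the gene as a black line and the 20 kb upstream as a grey line. Colour gives the log2 fold change, old minus young, after RLE scaling. All peaks of Fos and Fosb are blue, with values from -0.41 to -0.20, and all peaks of Fosl1 are red, with values from 0.36 to 0.43, of which the highest is that of the narrow peak that turned below 0 without young replicate 1.

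Most of the summed value at these genes lay in broad domains over their promoters. The 7 peaks of at least 10 kb held 77.1% of the summed value of the 35 peaks. These values are not divided by peak length, so wide peaks hold more by their width alone. For each gene, the promoter peak was the strongest peak within 1 kb of the start of any of its transcripts. Of the 10 genes, 9 had such a peak, compared with 71.2% of 21924 protein-coding genes, and Batf, which pairs with Jun proteins in lymphocytes, had none. The domains were 33.1 kb wide at Fosl2, 25.2 kb at Atf3, 23.6 kb at Junb, 22.5 kb at Fosb, 17.0 kb at Fos, 16.3 kb at Jund and 10.5 kb at Jun. The Fosl1 and Batf3 promoter peaks were narrower, at 8.8 kb each. Among the 15607 genes with a promoter peak the median width was 2.8 kb, and 6.15% had a promoter peak of at least 10 kb, against 7 of the 9 AP-1 genes. Some markers of MSCs and stroma also had such wide promoter peaks. These were Col1a1 with 32000 bases, Cxcl12 with 20500, Pdgfra with 15200 and Prrx1 with 10800, while the other markers of that list had 800 to 8900. The width of 10 kb was chosen after the values had been seen.

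The wide domains reached beyond the genes themselves. The Fosb domain, chr7:19290301-19312800, started 2.75 kb upstream of the gene and ended 12.4 kb past its end, and it held the start of Rtn2 as well. The Fos domain, chr12:85471301-85488300, ran 11.0 kb past the gene. The Junb domain, chr8:84967901-84991500, also covered the starts of Gm49661, Hook2, Prdx2 and Rnaseh2a, the Jund domain that of Iqcn and the Atf3 domain that of Fam71a, so these values do not belong to the AP-1 gene alone. At Atf3, a repressor induced by stress, the domain lay 30.5 kb downstream of the outermost annotated start and covered an inner start. That inner start is the one given by RefSeq, while the peak at the outermost start had a mean deposited value of only 71.7.

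Per kb of peak, the Jun promoter was the most accessible, with 88.5 ± 5.58 (SD, n = 4, both ages together). It was followed by Fos with 67.7 ± 6.91, Fosb with 59.5 ± 8.47, Jund with 53.7 ± 5.25 and Junb with 51.7 ± 9.77. Fosl2 had 29.7 ± 4.38, Fosl1 22.5 ± 6.83, Atf3 17.0 ± 1.80 and Batf3 9.06 ± 1.25 per kb. The median over all genes with a promoter peak was 31.3 per kb, taken from the deposited values and not RLE-scaled. The ranges over the 4 samples did not overlap between Jun and Fos, between Junb and Fosl2, between Fosl1 and Atf3 or between Atf3 and Batf3. They overlapped between Fos and Fosb, Fosb and Jund, Jund and Junb, and Fosl2 and Fosl1, whose order is thus not resolved. All 4 samples of Jun, Fos, Fosb, Jund and Junb stood above this median, and all 4 of Atf3 and Batf3 below it. The samples of Fosl2 and Fosl1 lay on both sides, where the difference in scale may matter.

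**Figure D2:**
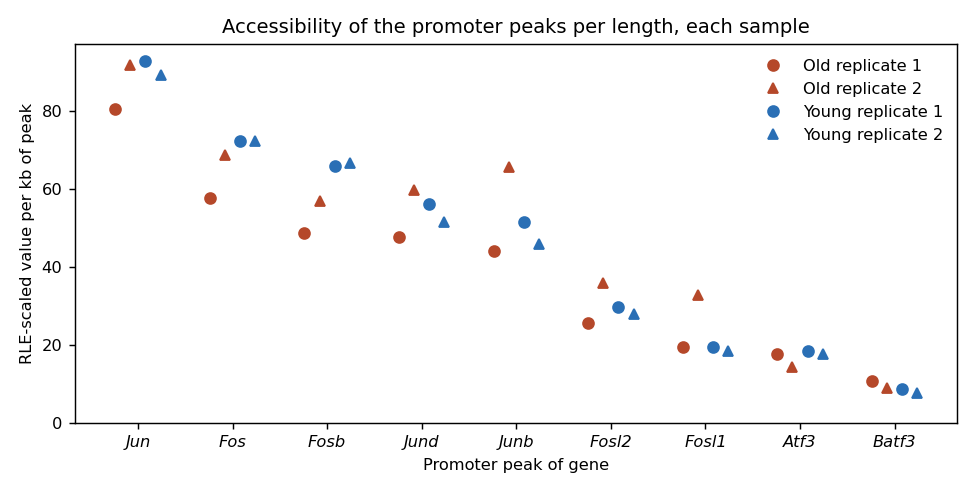
RLE-scaled value per kb of the promoter peak of each gene in each sample, with old samples in red, young samples in blue, circles for replicate 1 and triangles for replicate 2. Jun lies highest at 80.5 to 92.8 per kb and Batf3 lowest at 7.75 to 10.8 per kb. Both old samples lie below both young samples at Fos, Fosb and Atf3, and above them at Batf3.

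To ask whether accessibility at the AP-1 genes differed with age, all 117282 peaks were fitted with limma and p-values were adjusted by the Benjamini-Hochberg method. At an adjusted p under 0.01, 0 of the 35 peaks passed, where 66 peaks of the whole table, or 0.0563%, did. At an adjusted p under 0.05 the count was also 0, against 1.12% of all peaks, and the lowest adjusted p was 0.0893, at the Fosb promoter. An unadjusted p under 0.05 was found at 7 of the 35 peaks, 3 lower and 4 higher in old MSCs, which is 20% and close to the 16.4% of all peaks. Limma-voom on counts recovered from the values also called 0 of the 35 peaks, with 3 lower and 5 higher at an unadjusted p under 0.05. For the AP-1 peaks the median log2 fold change was 0.011, and for the whole table it was 0.0011. These counts depended on the old samples. Without old replicate 1, 8 of the 35 peaks passed an adjusted p under 0.01, 2 lower and 6 higher, and without old replicate 2, 2 lower peaks passed, while leaving out either young sample gave 0. Over all peaks the same fits called 6474 lower and 3880 higher, or 8.83%, and 1175 lower and 502 higher, or 1.43%. In these fits the lone old sample was assumed to vary like the young pair.

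The peaks spread to both sides of this median. Both old samples lay below both young samples at 10 of the 35 peaks, against 24.2% of all peaks, and above both at 7 of the 35, against 23.2% of all peaks. On the values as deposited, old was below young without overlap at 14 of the 35 peaks, where 43.5% of all peaks were. Old was above young at 1, the weakest peak, with 7 counts in each old and 3 in each young sample. The share of all peaks in that order was not counted. The old samples were not alike. The median over the AP-1 peaks was -0.099 and -0.12 for old replicate 1 against young replicates 1 and 2, and 0.092 and 0.15 for old replicate 2. An exact permutation test of 2 samples against 2 cannot go below p = 0.33.

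Most of the lower peaks without overlap were at Fos and Fosb. Distances of peaks are those of their centres from the annotated start. Fosb encodes a Fos protein whose splice form is known to favour bone formation. Its promoter domain had values of 1095 and 1280 in the old samples and 1482 and 1498 in the young samples. Both old samples were thus below both young samples, and the log2 fold change was -0.33 (SE 0.096, 95% interval from -0.53 to -0.13, limma adjusted p = 0.0893). The log2 fold change was -0.22 without old replicate 1 and -0.43 without old replicate 2. With 1 old sample left, such a fit holds no spread between old samples. At single peaks and genes only its effect size is therefore given. The peak 9.0 kb upstream of the start, chr7:19315701-19322400, had 226 and 220 in old and 272 and 253 in young MSCs, for a log2 fold change of -0.23. The peak 17.0 kb upstream, chr7:19325801-19328300, had 91.6 and 84.9 in old and 116 and 118 in young MSCs, for a log2 fold change of -0.41 (SE 0.17, limma adjusted p = 0.239). All 3 peaks of Fosb were lower in each old sample than in each young sample, and none passed the adjusted threshold.

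The peak furthest upstream of Fosb held an AP-1 site, shown here because this peak had the second lowest log2 fold change of the 10 lower peaks without overlap, with the site in capitals and in the direction of Fosb (chr7:19327328-19327374, minus strand).
Fosb upstream peak: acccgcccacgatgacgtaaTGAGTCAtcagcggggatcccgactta
The Fosb domain itself held 6 AP-1 sites and the peak between them 4, so that Fosb, with 11 sites over 31.7 kb of peaks, had the most of the 10 genes.

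Fos, the founding member and the partner of Jun in the classical AP-1 dimer, had 4 peaks. Its promoter domain had 980 and 1166 in the old and 1229 and 1227 in the young samples, a log2 fold change of -0.20 (SE 0.10, 95% interval from -0.41 to 0.011, limma adjusted p = 0.333). Without old replicate 2 it was -0.32, and without old replicate 1 it was -0.078. The peak 18.1 kb upstream, chr12:85454101-85457500, had 235 and 253 in old and 284 and 318 in young MSCs, for a log2 fold change of -0.30 (limma adjusted p = 0.274). The weaker peak 5.54 kb upstream, chr12:85467501-85469200, had 10.3 and 11.8 in old and 16.2 and 13.9 in young MSCs. Its log2 fold change of -0.41 was the lowest among the 35 peaks, but it rested on 24 to 49 counts per sample. The remaining peak, 11.4 kb upstream, had 43.7 and 54.6 in old and 62.0 and 57.3 in young MSCs.

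At all 4 Fos peaks each old sample lay below each young sample, as at the 3 Fosb peaks. These 7 peaks made up 7 of the 10 AP-1 peaks with that order, and their log2 fold changes were below 0 under RLE, quantile and equal total scaling and on the values as deposited. Of the 7, 3 had an unadjusted p under 0.05, and those were all the lower peaks at that level. With each sample left out in turn, their values ranged from -0.52 to -0.078. Because each old sample lay below each young sample at these peaks, leaving out a sample could hardly change the sign. The range is thus a description only. Neighbouring peaks of a gene are not independent measurements.

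Fosl1 showed the opposite order at 2 of its 4 peaks. It encodes Fra-1, a Fos protein without a strong activation domain that is known to support osteoblast matrix production. Its promoter peak, chr19:5444001-5452800, had 170 and 288 in the old and 171 and 162 in the young samples, a log2 fold change of 0.41 (SE 0.19, 95% interval from 0.014 to 0.81, limma adjusted p = 0.289). Old replicate 2 was the high sample, while old replicate 1 lay between the young samples. The upstream peak chr19:5428001-5435400 had 175 and 266 against 169 and 168, and the peak over the end of the gene, chr19:5453501-5461600, which also covers the starts of Ccdc85b and Fibp, had 152 and 222 against 149 and 132.

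In both of these peaks the old samples were above the young samples, by a narrow margin in old replicate 1. The weak peak 10.5 kb upstream had 5.99 and 9.10 in old and 2.64 and 9.74 in young MSCs, and its log2 fold change of 0.43 rested on 8 to 33 counts per sample and was -0.36 without young replicate 1 and 1.19 without young replicate 2. The log2 fold changes of the other 3 Fosl1 peaks lay between 0.36 and 0.41, and between 0.072 and 0.12 on the values as deposited. Without old replicate 2, that of the promoter peak was 0.044, and without old replicate 1 it was 0.78. In the same fits the far upstream peak had 0.067 and 0.66, and the one over the end of the gene had 0.12 and 0.66. The Fosl1 promoter peak held 5 AP-1 sites. Fosl1 had the only promoter peak with an unadjusted p under 0.05 on the higher side. Of its sites, those centred 1311 and 2322 bases after the annotated start are shown as examples, and the others are not. Each is written in the direction of the gene with the site in capitals.
Fosl1, chr19:5448835-5448881, plus strand: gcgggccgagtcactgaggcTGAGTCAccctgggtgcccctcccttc
Fosl1, chr19:5449846-5449892, plus strand: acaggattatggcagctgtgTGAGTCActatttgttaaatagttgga

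Fosl2 encodes Fra-2, which regulates osteoblast and osteoclast differentiation. Its domain, the widest of the members at chr5:32131901-32165000, had 848 and 1185 in the old and 983 and 920 in the young samples. Old replicates 1 and 2 lay on either side of the young samples, and the log2 fold change was 0.076 (95% interval from -0.19 to 0.34). It was 0.31 without old replicate 1 and -0.16 without old replicate 2. The peak 6.75 kb upstream, chr5:32127401-32130700, had 28.7 and 27.6 in old and 16.2 and 21.8 in young MSCs. Its log2 fold change of 0.56 (SE 0.25, limma adjusted p = 0.278) was the third highest of the 35 peaks. It was 0.35 without young replicate 1 and 0.76 without young replicate 2. The peak 11.8 kb upstream had 28.7 and 37.6 in old and 26.7 and 36.3 in young MSCs.

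The promoter peaks of the Jun genes had log2 fold changes between -0.084 and 0.15. Jun, the main activating partner in AP-1 dimers, had a single peak, chr4:95044501-95055000, with 845 and 962 in the old and 975 and 937 in the young samples. The old and young values overlapped, and the log2 fold change was -0.084 (SE 0.10, 95% interval from -0.30 to 0.13, limma adjusted p = 0.730). Jund, which is expressed without stimulation in most cells and can restrain growth, had 775 and 972 in old and 912 and 841 in young MSCs over its domain chr8:70696101-70712400, a log2 fold change of -0.013 (95% interval from -0.25 to 0.22). The domain held a full cyclic AMP response element centred 210 bases before the annotated start of Jund, 1 of 2 among the 35 peaks, which is shown with the element in capitals.
Jund, chr8:70698715-70698762, plus strand: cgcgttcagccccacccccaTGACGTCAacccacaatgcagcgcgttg

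Junb, which can replace or oppose Jun and is needed for bone formation, had 1039 and 1547 in the old and 1212 and 1079 in the young samples over its domain. Old replicate 2 was the highest of the 4 samples and old replicate 1 the lowest, and the log2 fold change was 0.15 (95% interval from -0.13 to 0.43, limma adjusted p = 0.623). It was 0.43 without old replicate 1 and -0.13 without old replicate 2. The peak 19.3 kb upstream of Junb, chr8:84997501-84998600, overlapped the gene Hook2. It had 16.3 and 30.0 in old and 12.9 and 12.7 in young MSCs, for a log2 fold change of 0.75 (SE 0.30, limma adjusted p = 0.215). Without old replicate 1 that log2 fold change was 1.17, and without old replicate 2 it was 0.33.

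The highest fitted value was at the weakest peak, 19.2 kb upstream of Jund, chr8:70679601-70679800. It had 7 counts in each old and 3 in each young sample, a log2 fold change of 0.87 (limma adjusted p = 0.374). Per library total the old to young ratio of counts was 2.20, with a 95% interval from 0.794 to 6.99 for counting error only, so that a difference was not detectable at this depth. The other upstream peaks of Jund, 16.4 and 11.1 kb from the start, had log2 fold changes of -0.10 and -0.068. The one 14.5 kb upstream of Junb, which also overlapped Hook2, had -0.091.

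Atf3 is a stress gene of the ATF group, and Batf and Batf3 are factors of immune cells that lack an activation domain. The Atf3 domain, chr1:191162301-191187500, had 441 and 360 in the old and 462 and 445 in the young samples. Both old samples lay below both young samples, old replicate 1 by a small margin, and the log2 fold change was -0.18 (SE 0.13, limma adjusted p = 0.496). Without old replicate 1 it was -0.33, and without old replicate 2 it was -0.029. The upstream peak chr1:191221501-191226200 had 156 and 189 in old and 162 and 165 in young MSCs. The other Atf3 peaks had log2 fold changes between -0.33 and 0.21.

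The Batf3 promoter peak, chr1:191092101-191100900, had 94.6 and 79.5 in the old and 76.6 and 68.2 in the young samples, a log2 fold change of 0.26 (SE 0.19, limma adjusted p = 0.518), and the old samples were above the young ones. This fold change was 0.13 without old replicate 1, 0.39 without old replicate 2 and -0.026 on the values as deposited. Its strongest other peak, 18.2 kb upstream and overlapping the gene Nsl1, had 14.1 and 8.80 against 10.6 and 7.68. At Batf, whose strongest peak lay in an intron 19.3 kb from the start (chr12:85704601-85707400), values were 90.8 and 119 in old and 102 and 86.5 in young MSCs. Thus the Batf peak overlapped between the ages, with a log2 fold change of 0.14.

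**Figure D3:**
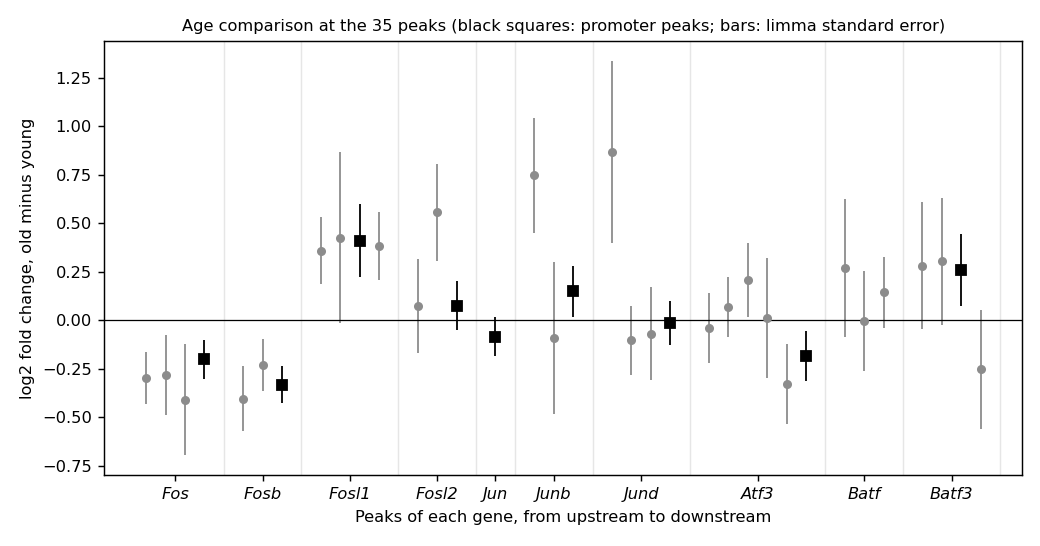
Log2 fold change, old minus young, of each of the 35 peaks after RLE scaling, ordered from upstream to downstream within a gene, with bars for the limma standard error and black squares for promoter peaks. The 7 peaks of Fos and Fosb lie below 0 and the 4 of Fosl1 above 0, 1 of them with a standard error as wide as its value, while peaks of Jun, Junb, Jund, Atf3, Batf and Batf3 lie near 0 or on both sides of it.

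The values of all peaks of a gene were then summed, and 18118 protein-coding genes with a peak were fitted in the same way. The sums had RLE factors of their own, 0.786, 1.03, 1.08 and 1.14 for old replicates 1 and 2 and young replicates 1 and 2. At an adjusted p under 0.01, 0 of the 10 AP-1 genes passed, against 2 genes or 0.011% of all. An unadjusted p under 0.05 was reached by 2 of the 10, Fosb and Fosl1, in opposite directions, and by 8.43% of all genes. Fosb had 1512 ± 62.7 in old and 1870 ± 28.2 in young MSCs (SD, n = 2 each), a log2 fold change of -0.31 (SE 0.10, limma adjusted p = 0.516). Fosl1 had 647 ± 176 in old and 481 ± 7.18 in young MSCs, for a log2 fold change of 0.40 (SE 0.17, limma adjusted p = 0.581). For Fosl1 the SD of the old samples was larger than the difference from the young mean. Without old replicate 1 the log2 fold change was 0.67 at Fosl1, 0.41 at Junb, 0.29 at Fosl2, -0.14 at Fos and -0.27 at Fosb. Without old replicate 2 it was 0.13, -0.065, -0.083, -0.27 and -0.34 in the same order. The same fits called 26.7% and 2.05% of all genes.

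The sums of the other genes lay between these. Fos had 1388 ± 98.9 in old and 1604 ± 41.7 in young MSCs, for a log2 fold change of -0.21 (95% interval from -0.45 to 0.028). The log2 fold changes of Jun, Atf3 and Jund were -0.070, -0.067 and -0.0061, and those of Fosl2, Batf, Junb and Batf3 were 0.10, 0.14, 0.17 and 0.24. Old replicate 2 was above both young samples at Fosl1, Fosl2, Junb, Jund and Batf and below both at Fos, Fosb, Jun and Atf3. For Jun, whose sum is its single peak, old replicate 2 had 944 against 965 and 947. With the factors of the peaks it had 962 against 975 and 937, so its place depended on the scaling. With each sample scaled to equal total signal, which raised the median of all genes to 0.23, the Fos sum turned to 0.018 while that of Fosb was -0.079 and that of Fosl1 was 0.63.

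**Figure D4:**
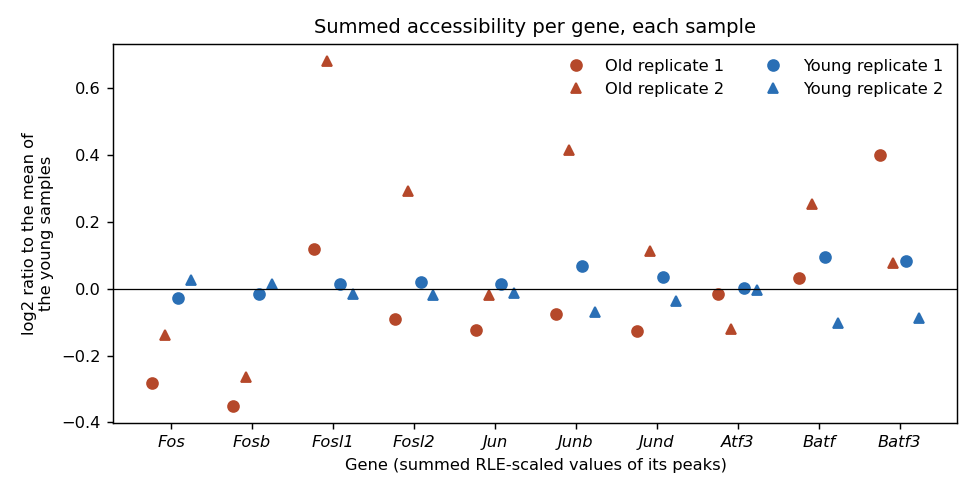
Summed RLE-scaled value of the peaks of each gene in each sample, as a log2 ratio to the mean of the young samples, with old samples in red, young samples in blue, circles for replicate 1 and triangles for replicate 2. At Fos, Fosb, Jun and Atf3 both old samples lie below 0, at Fosl1 old replicate 2 lies highest of all points, and at Junb and Fosl2 the old samples lie on either side of 0.

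Genes that act with AP-1 were read from the same fit of summed values. Of 14 bZIP genes that can pair with or compete with AP-1 proteins, 0 passed an adjusted p under 0.05, and 0 had an unadjusted p under 0.05. Their median log2 fold change was 0.11, and the lowest p was that of Maf, with values of 297 and 332 in old and 264 and 256 in young MSCs (log2 fold change 0.27, limma adjusted p = 0.615). Of 14 upstream kinases and factors of serum response, 0 passed and 0 had an unadjusted p under 0.05, with a median of -0.081. Mrtfa, a co-activator of serum response factor, came nearest, with 1005 and 1348 in old and 942 and 949 in young MSCs (log2 fold change 0.30, limma adjusted p = 0.601).

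Of 16 other immediate early genes, 0 passed, and only Klf2 had an unadjusted p under 0.05. Klf2, a zinc finger factor induced by shear stress, had 884 and 889 in the old and 1144 and 1141 in the young samples. Each old sample lay below each young sample by a margin well above the spread within each age, and the log2 fold change was -0.37 (SE 0.11, limma adjusted p = 0.406). The median of these 16 genes was -0.0080, and 2 of them had both old samples under both young samples, where 21.1% of all genes did. Of 12 known AP-1 targets, 0 passed, while Il6 was lower and Ccnd1 and Plau were higher at an unadjusted p under 0.05. Il6, an inflammatory cytokine, had 185 and 195 in old and 246 and 244 in young MSCs (log2 fold change -0.36, limma adjusted p = 0.540). Over all genes, the median was 0.0018.

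By distance between centred log2 profiles over the 4 samples, the genes of these lists most like the mean of the 10 AP-1 genes were Maff with 0.072, Atf5 with 0.076 and Map2k1 with 0.077. That mean profile itself was at -0.071 and 0.11 in the old and at 0.0097 and -0.049 in the young samples, so it separated the old samples from each other and not old from young. Klf2 and Il6, at distances of 0.43 and 0.41, were farther from it.

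AP-1 proteins bind the site TGACTCA, which reads TGAGTCA on the other strand and is common in accessible regions. Within the 300 bases at the centre of each peak, the site was found in 2 of the 35 AP-1 peaks, or 5.71%, and in 16.1% of all peaks. Over whole peaks, the AP-1 genes held 64 sites in 26 peaks, or 0.280 per kb, against 0.334 per kb in all peaks and 0.214 per kb in peaks of at least 10 kb. Fosb had 11 sites, Atf3 10, Fosl1 and Fosl2 9 each, Junb and Jund 8 each, Batf3 6, Batf 2 and Fos 1, and none was found in the Jun peak. The full cyclic AMP response element TGACGTCA and the CArG box were found at the centre of 0 of the 35 peaks, and in 0.460% and 1.68% of all peaks.

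As a readout of sites for these factors elsewhere, all peaks with a central AP-1 site had a median log2 fold change of 0.021 in old against young MSCs, and peaks without one had -0.0022. When each old sample was set against each young sample, the median of peaks with a site was above that of peaks without one in all 4 combinations, by 0.0040 to 0.049. Peaks are not independent replicates, and this difference was not tested.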

How the data were processed

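ATAC-seq was performed on 2 old and 2 young samples of mouse bone MSCs. The deposited values, a score that the authors named RPKM, were whole multiples of a step in 100% of cases (tolerance 0.01 of a step) and were not divided by peak length. Per the labels, Bowtie2, Picard and mm10 were used. The study's methods, written for its hypoxia and normoxia samples, describe peaks and values from chromstaR, tested with RLE factors.

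Peaks and gene sums were fitted here with limma 3.58.1 in R 4.3.3 (trend and robust moderation) on log2(RLE-scaled value + 1) with age group as the only term, and adjusted by the Benjamini-Hochberg method over all 117282 peaks or 18118 genes, with a threshold of 0.01. Python 3.11.15, pandas 2.3.3, numpy 2.4.6, scipy 1.17.1 and matplotlib 3.10.9 served for summaries and figures. A trial of the fit on simulated counts gave all samples the same spread, unlike the old samples here, and is not used as support. Members, lists and motifs were chosen with earlier results of these data known. Named peaks were the promoter peak and the strongest other peak of each gene, and the 3 largest rises and 3 largest falls among peaks without overlap between ages. From each list, genes past an adjusted p under 0.05 or else the lowest p were named, and the 3 genes most like the AP-1 mean. Ccnd1 and Plau were named after their values were seen. Deviations from the group means of samples sharing a replicate number had a correlation of -0.0993 across peaks, so numbers were not read as pairs.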

Additional observations from a re-analysis of the deposited data

How the results depend on the processing

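The counts of 0 peaks and 0 genes past an adjusted p under 0.01 held under every scaling, pseudocount, filter, moderation, window and threshold of 0.05 tried, and changed only when an old sample was left out. Leaving out each sample in turn gave between 0 and 8 peaks, between 0 and 4 genes and medians of the AP-1 peaks between -0.060 and 0.13. That median was -0.26 on the values as deposited, where the median of all peaks was -0.27. With the replicate number as a block, 0 AP-1 peaks and 0 AP-1 genes passed, while the count over all peaks went from 36 lower and 30 higher to 907 and 362. Against the same 36 and 30, the unscaled values gave 1333 and 52, and there were 7 and 15 with equal total signal, 11 and 13 with a pseudocount of 0.1, 13 and 12 without peaks under the lower quartile of mean value, 904 and 412 at an adjusted p under 0.05, 95 and 49 with limma-voom, and 0 and 0 without trend and robust moderation, where 18146 had an unadjusted p under 0.05. The cause of these changes was not tested.

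Some named peaks changed sign. Without further scaling, the log2 fold change was -0.22 at the Atf3 peak from 191221501, -0.14 at the Batf peak from 85704601, -0.026 at the Batf3 promoter, -0.21 at the Fosl2 peak from 32123401, -0.21 at the Fosl2 promoter and -0.14 at the Junb promoter. At the Jund promoter it was 0.00089 with quantile normalization and 0.056 with equal total signal. With each sample left out in turn, the values ranged from -0.060 to 0.20 at the Atf3 peak, from -0.042 to 0.34 at the Batf peak, from -0.034 to 0.60 at the Batf3 peak from 191079001, from -0.14 to 0.28 and from -0.16 to 0.31 at those Fosl2 peaks, from -0.17 to 0.0060 at Jun, from -0.13 to 0.43 at the Junb promoter, from -0.21 to 0.0041 at the Jund peak from 70681301 and from -0.17 to 0.15 at the Jund promoter. No named peak at Fos, Fosb or Fosl1 changed sign under these settings. At the Fos and Fosb peaks and the upstream Fosl1 peak, old and young samples did not overlap. Leaving out a sample could therefore hardly change their sign.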

Other observations

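A window of 50 kb upstream in place of 20 kb raised the number of peaks at the AP-1 genes from 35 to 74. None of the added peaks passed an adjusted p under 0.01 with limma, and 1 had an adjusted p under 0.05. This peak, chr7:19339501-19339800, lay 29.6 kb upstream of the Fosb start, outside the chosen window, and was named after its values were seen. It held 1 count in each old sample and 17 and 15 counts in the young samples (limma adjusted p = 0.0340 over all peaks). Per library total the old to young ratio of its counts was 0.0589, with a 95% interval from 0.00684 to 0.231 for counting error only. With so few old counts, this peak was probably listed through the young samples alone. Neither the adjusted p nor the interval can therefore serve as a test of it. The adjoining peak, chr7:19337601-19339500, had 196 and 372 counts in the old and 326 and 398 in the young samples and a log2 fold change of -0.21.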
